A study of Mus musculus with 6 samples.

Results

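The splicing factors and nuclear speckle RNAs described here are 10 rows of an RNA-seq table of the mouse embryonic head: Son, Sf1, Sf3b2, Sart1, Tra2b, Rbm4, Rbm14, Hnrnpul2, Malat1 and Neat1. They were taken by gene name from a list drawn up with earlier results of these data known, and each of the 10 names has a row among the 15734 of the table. The 6 libraries were made from polyadenylated RNA of cranial tissue, taken above the pharyngeal arches and otic vesicles at embryonic day 9.5. In 3 libraries the embryos were homozygous for the msp3 allele of Smarcc1, the gene of the chromatin remodelling subunit BAF155, and the submitters' title calls them NTD mutants. In the other 3 libraries the embryos were homozygous wild type. All were on a mixed background of C57BL/6J and 129/SvImJ. The labels give 19 to 21 somites and the design text 21 to 23. The tissue was whole and unsorted, so fewer cells of a type and less RNA per cell cannot be told apart.

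Splicing removes introns from pre-mRNA. SF1 binds the branch point of an intron first, and the U2 particle with its SF3B subunits then takes its place. SART1 helps to join the tri-snRNP to the spliceosome, and proteins such as TRA2B and RBM4 steer which exons are kept. Many of these factors are stored in nuclear speckles, bodies that are built around the protein SON and that hold the long noncoding RNA MALAT1. Paraspeckles are neighbouring bodies built on the RNA NEAT1, and RBM14 is needed to form them.

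None of the 10 rows passed the test between genotypes. The 7 protein-coding rows on stretches where levels matched names had differences of -0.10 to 0.05 on the log2 scale, and 6 of them had their highest value in mutant 2. Malat1 was set apart by wild type 2, and Neat1 by a wide spread among the mutants. The values are normalized read counts, made by the authors, and differences were tested with limma on log2(value + 1) over 13329 rows. An adjusted p below 0.05 was reached by 0.0225% of those rows (3 of 13329), and by 0 of the 10 members. At an unadjusted p below 0.05 there were again 0 members in this fit, against 10.8% of all rows; other settings put Neat1 or Rbm14 below it, as given with those genes. In no member did the genotypes separate without overlap, as they did in 19.1% of all rows. On recovered reads, edgeR passed 0.015% of rows and DESeq2 1.38%, and either tool passed 0 members.

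Row names and levels matched in only part of this table, so the names were examined first. Genes that most cells express should have a high row. Of 83 such genes in the first 6.6 Mb of chromosome 19 and on chromosome 16 up to 94.2 Mb, 83 had a mean of 1000 or more. On chromosome 19 from 6.6 to 10 Mb only 9 of 21 did, and on chromosome 16 beyond 94.2 Mb 0 of 4. The row named Dyrk1a, at 94.6 Mb of chromosome 16 and not among those 4, had a mean of 61590. The genes and the limits were chosen after the levels were seen, so these counts describe the stretches and are no test that a row holds the named gene. 9 of the 10 members lie in the stretches where the names fitted. Hnrnpul2, at 8.82 Mb of chromosome 19, does not, and within 0.2 Mb of it 7 of 11 such genes reached 1000, against 2 of 10 elsewhere from 6.6 to 10 Mb. The low ones of the 11 all lie before Hnrnpul2 on the chromosome. Its values are therefore those of a row that bears the name.

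**Figure D1:**
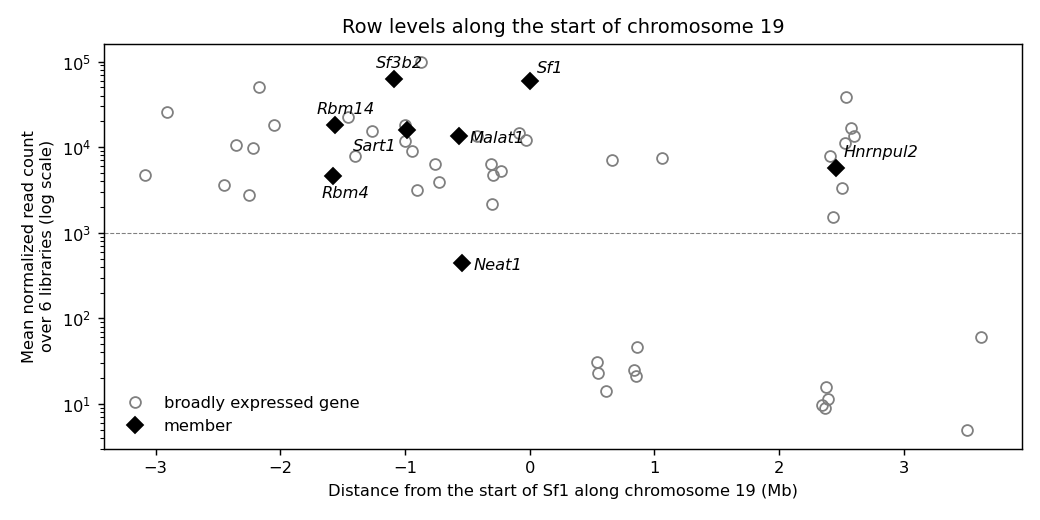
Mean normalized read count over the 6 libraries (log axis) against distance along chromosome 19 from the start of Sf1 in Mb, for broadly expressed genes and for the members on that chromosome. All 25 broadly expressed genes in the first 6.6 Mb lie at 1000 or more, and 12 of 21 beyond it lie lower, with Hnrnpul2 in that second stretch.

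The libraries held between 46170743 and 82067578 reads in rows. On the first principal component mutant 2 stood apart at 44.1, with mutant 1 at 3.38 and mutant 3 at 0.218. Wild types 1, 2 and 3 were at -20.3, -12.3 and -15.0, so every mutant lay above every wild type on it. The row named Smarcc1 had 35870, 52563 and 35022 in mutants, against 42915, 62563 and 50066 in wild type, a log2 difference of -0.34 (limma, adjusted p = 0.495). Its groups overlapped, and it lies on chromosome 9, outside the stretches where names fitted. All 12 cell type markers had reads in every library. The neural progenitor genes Hes1, Olig1 and Olig2 summed to 4101 to 7559 in mutants and 4893 to 5179 in wild type. The summed level of the neuronal genes Gap43 and Sst was 7198 to 8193 in mutants and 5360 to 6252 in wild type. The log2 difference was 0.30 for Gap43 and 2.92 for Sst (limma, unadjusted p = 0.00347 and 0.00236, adjusted p = 0.331 for both). The endothelial genes Cldn5 and Erg summed to 1278 to 1865 in mutants and 2190 to 2557 in wild type, a gap that lay in Cldn5, since Erg, outside the stretches with fitting names, overlapped at 68.9 to 146 in mutants and 120 to 154 in wild type. The pharyngeal marker Tbx1 had 1507 to 2074 in mutants and 2049 to 2945 in wild type, a log2 difference of -0.53 (limma, unadjusted p = 0.00896, adjusted p = 0.396). The mesenchymal genes Snai2 and Adamts1 summed to 4371 to 5544 in mutants and 4713 to 4949 in wild type. Any part of such a shift in the values below was not tested.

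Son encodes the large serine- and arginine-rich scaffold of nuclear speckles. Its row had 65795, 61244 and 68573 in mutants, against 66316, 70091 and 65827 in wild type. The lowest value was that of mutant 2, while mutant 1 was just below the wild-type range and mutant 3 within it. The mean was 65204 ± 3700 in mutants and 67411 ± 2333 in wild type (SD, n = 3 each), a log2 difference of -0.05 (SE 0.058; limma, adjusted p = 0.744). The 95% interval ran from 0.882-fold to 1.06-fold. On GRCm38 the gene spans chr16:91647506-91679221 on the plus strand, and Donson, a replication gene, overlaps its exons on the opposite strand. The kit does not mark strand, so reads of such overlaps cannot be assigned to one gene. Donson itself averaged 5700 ± 493 in mutants and 5555 ± 345 in wild type (SD, n = 3 each), about an order of magnitude below Son.

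Sf1 and Sf3b2 act at the branch point, Sf1 as the protein that first recognises it and Sf3b2 as a subunit of the U2 particle that replaces it. Sf1 had 58272, 66159 and 57735 in mutants, against 60085, 57680 and 59386 in wild type. The difference between its means came from mutant 2, since the other mutants were below 2 of the 3 wild-type values. Its log2 difference was 0.04 (SE 0.063; limma, adjusted p = 0.823), and -0.03 without mutant 2. Sf3b2 had 62804, 66100 and 58946 in mutants, against 62302, 60451 and 63023 in wild type. Mutant 2 was again the highest and mutant 3 the lowest of the 6. The log2 difference was 0.01 (SE 0.056; limma, adjusted p = 0.927), -0.03 without mutant 2 and -0.003 without wild type 2. The 95% intervals allowed 0.929-fold to 1.13-fold for Sf1 and 0.925-fold to 1.10-fold for Sf3b2.

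Sart1, the tri-snRNP factor, had 15303, 17999 and 15341 in mutants, against 15723, 15773 and 16140 in wild type. Mutants 1 and 3 were both below every wild-type library and mutant 2 was above all of them. The coefficient of variation was 9.53% in mutants and 1.43% in wild type. The log2 difference was 0.03 (SE 0.073; limma, adjusted p = 0.898), and -0.05 without mutant 2, with a 95% interval of 0.907-fold to 1.14-fold over all libraries.

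Tra2b and Rbm4 encode RNA-binding proteins that regulate exon choice, Tra2b by binding purine-rich exonic enhancers. Tra2b had 32236, 38241 and 28514 in mutants, against 33936, 31275 and 31147 in wild type. Both the highest and the lowest of the 6 values were mutants. Its log2 difference was 0.03 (SE 0.10; limma, adjusted p = 0.918), and -0.08 without mutant 2. Among the 7 protein-coding members with fitting names Tra2b had the largest log2 SD in mutants, 0.213, and also in wild type, 0.070. Rbm4 had 4323, 5319 and 4429 in mutants, against 4426, 4459 and 4639 in wild type. Mutant 2 was the only mutant above the wild-type range. The log2 difference was 0.05 (SE 0.089; limma, adjusted p = 0.831), and -0.04 without mutant 2. The 95% intervals were 0.871-fold to 1.20-fold for Tra2b and 0.900-fold to 1.19-fold for Rbm4.

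Rbm4 has a close copy beside it, Rbm4b, in reverse orientation, and the sequences are shown because a short read from their common part cannot be given to one gene. Their coding sequences (1083 and 1071 bases on GRCm38) were 86.5% identical over the 1070 aligned bases and shared an unbroken run of 425 bases, and 37.2% of the 36-base words of Rbm4 occurred in Rbm4b. The stretches below cross the end of that run. They are spliced coding sequence over an intron, between the bounds chr19:4787980-4792424 on the minus strand for Rbm4 and chr19:4757643-4762039 on the plus strand for Rbm4b, and capitals mark the 8 bases that differ.
Rbm4: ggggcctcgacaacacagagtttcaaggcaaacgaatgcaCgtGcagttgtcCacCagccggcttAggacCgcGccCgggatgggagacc
Rbm4b: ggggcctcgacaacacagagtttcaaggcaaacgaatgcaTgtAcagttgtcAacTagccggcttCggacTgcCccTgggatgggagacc
How the authors treated reads that map to both genes is not given in the sources used here, so the division between the rows is uncertain. Rbm4b had 4458, 5692 and 5071 in mutants, against 4680, 4885 and 4671 in wild type, again with mutant 2 highest. The log2 ratio of Rbm4 to Rbm4b was -0.04, -0.10 and -0.20 in mutants, against -0.08, -0.13 and -0.01 in wild type (exact permutation test, two-sided, p = 0.5). Their sum was 8780, 11011 and 9500 in mutants, against 9105, 9344 and 9310 in wild type. It is free of that division only if each shared read was counted once, which is not given. The sum had the same order as the single rows at its top, with mutant 2 above the other 5 libraries.

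Rbm14 encodes a paraspeckle protein that is also a coactivator of transcription. It had 16725, 19126 and 16408 in mutants, against 18829, 18156 and 18828 in wild type. Mutants 1 and 3 were below every wild-type library, and mutant 2 was above them. The mean was 17420 ± 1487 in mutants and 18604 ± 389 in wild type (SD, n = 3 each), a log2 difference of -0.10 (SE 0.070; limma, adjusted p = 0.592) with a 95% interval of 0.837-fold to 1.04-fold. Without mutant 2 it was -0.17 (limma, unadjusted p = 0.00501, adjusted p = 0.276), with array quality weights -0.14 (unadjusted p = 0.0157), and the adjusted p ran from 0.215 to 0.810 over the alternative settings. The readthrough transcript Gm21992 overlaps exons of both Rbm4 and Rbm14 on the same strand, so reads from it could have been counted in either row.

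The row named Hnrnpul2, for an RNA-binding protein of the hnRNP U family, had 5734, 6462 and 5539 in mutants, against 5208, 5619 and 5607 in wild type. It was highest in mutant 2 and lowest in wild type 1. The log2 difference was 0.11 (SE 0.078; limma, adjusted p = 0.599) with a 95% interval of 0.953-fold to 1.22-fold. Two-sided exact permutation tests of the 10 members gave p between 0.3 and 1.0, and 0.1 is the smallest possible with 3 against 3.

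**Figure D2:**
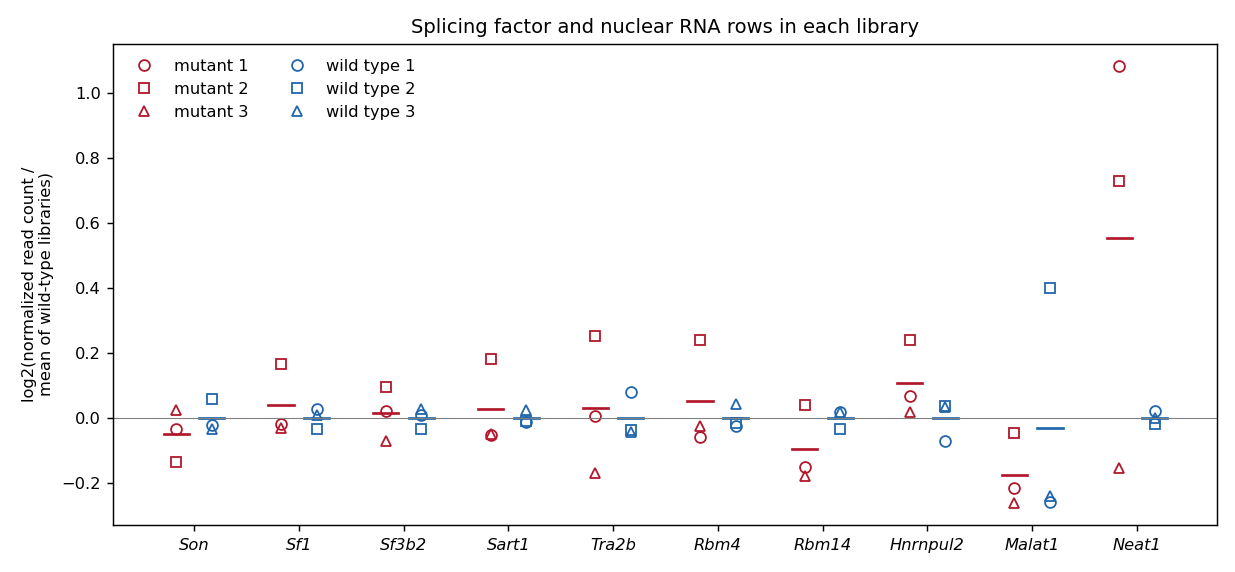
Normalized read count of each member in each library, on a log2 scale relative to the mean of the 3 wild-type libraries, with mutants left (red) and wild type right (blue) for each gene, a symbol for each library number and a horizontal line at the mean log2 value of the genotype (n = 3 each). The genotypes overlap in all 10 genes, and mutant 2 (red squares) is the highest point in 7 of them.

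Mutant 2 was the highest library in 7 of the 10 members (70%), and in 6 of the 7 protein-coding members with fitting names (85.7%), the exception being Son. Over all tested rows mutant 2 was highest in 27.9%, and over the 641 tested rows where names fitted in 39.9%. The trait was not particular to the members. It held in 71.4% of the 7 other splicing and speckle genes described below, and in 83.3% of the 6 with fitting names. The share was 42.9% in the 21 tested genes of other nuclear RNA steps there and 29.3% in the 41 tested splicing rows elsewhere. The log2 SD was larger in mutants than in wild type in 9 of 10 members, Malat1 being the exception. It was larger in mutants in 68.8% of all tested rows and in 74.9% of the tested rows where names fitted. For the 7 protein-coding members the median log2 SD was 0.121 in mutants and 0.031 in wild type, against 0.152 in mutants and 0.082 in wild type over the rows where names fitted. The median log2 difference of the 10 members was 0.028 (7 higher, 3 lower). It was 0.024 over the tested rows where names fitted (351 higher, 290 lower) and -0.005 over all rows. The members were thus near the level of their own stretches.

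The level of mutant 2 went along with transcript length. Over 636 rows with fitting names, its log2 deviation from the median of the other 5 libraries had a Spearman correlation of -0.355 with the length of the longest annotated transcript, and in the other libraries the correlation lay between -0.099 and 0.245. These rows share a library and its depth, and they are not independent. The median deviation of mutant 2 was 0.195 for transcripts of 65 to 2421 bases, 0.093 for those of 2424 to 4112 bases and -0.076 for those of 4115 to 26901 bases. Among members, Son, with the longest coding transcript at 8731 bases, had -0.11, Tra2b 0.29 at 4112 bases and Rbm4 0.26 at 2965 bases. Other members of the longest group were above 0: Sf1 had 0.18 at 4353 bases, Sart1 0.20 at 5091, Malat1 0.19 at 6983 and Neat1 0.73 at 20771. Of the members with fitting names in that group, only Son was below 0. Sf3b2, at 3222 bases, had 0.09 and Rbm14, at 3508 bases, 0.08. The members did not line up by length. The part of length in the members' values was not tested.

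**Figure D3:**
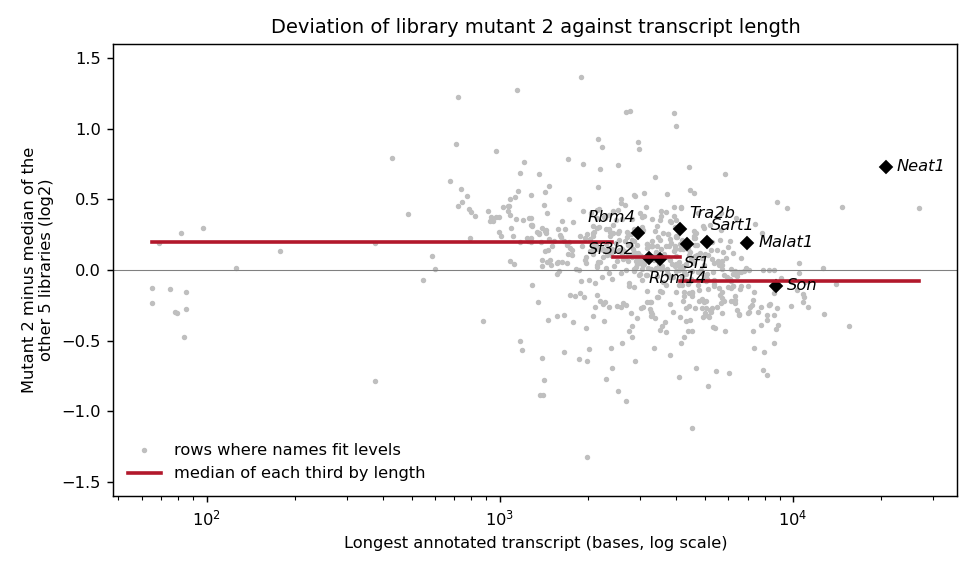
Log2 deviation of mutant 2 from the median of the other 5 libraries against the longest transcript in bases (log axis), for 636 rows with fitting names, with the members labelled and 1 row outside the plotted range of ±1.6. Short transcripts lie mostly above 0 and long ones below it, with Son at -0.11 and Neat1 at 0.73.

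Malat1 and Neat1 are noncoding RNAs whose genes lie next to each other on chromosome 19. Their ends are shown because the libraries were made from polyadenylated RNA. The mature end of Malat1 is cut by RNase P ahead of a tRNA-like RNA and carries an A-rich tract from the genome in place of an added tail. The short form of Neat1 is polyadenylated, while the long form, which builds paraspeckles, ends in the same way as Malat1. The sequences are from GRCm38, all on the minus strand: Malat1 chr19:5795926-5796089, with its run of 12 A in capitals, 298 bases before the annotated transcript end, Neat1 short form chr19:5842307-5842366, with its AATAAA signal in capitals, and Neat1 long form chr19:5824708-5824767, with its A runs in capitals.
Malat1: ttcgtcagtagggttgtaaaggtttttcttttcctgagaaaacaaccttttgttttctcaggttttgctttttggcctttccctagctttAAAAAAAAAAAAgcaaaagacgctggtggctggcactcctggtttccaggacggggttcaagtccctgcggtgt
Neat1 short form: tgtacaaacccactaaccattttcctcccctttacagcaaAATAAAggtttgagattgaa
Neat1 long form: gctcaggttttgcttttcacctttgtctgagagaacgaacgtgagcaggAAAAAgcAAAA
The table gives 1 row for Neat1, so its forms cannot be told apart, and a level of either RNA here is its level in RNA labelled as polyadenylated.

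Malat1 had 12385, 13916 and 11994 in mutants, against 12028, 18968 and 12189 in wild type. Wild type 2 was well above the other 5 libraries, which lay within 11994 to 13916. The mean was 12765 ± 1015 in mutants and 14395 ± 3961 in wild type (SD, n = 3 each), a log2 difference of -0.14 (SE 0.16; limma, adjusted p = 0.737) with a 95% interval of 0.700-fold to 1.17-fold. Without wild type 2 it was 0.07, so the sign rested on that library. Among 409 rows with fitting names and a mean of 1000 or more, Malat1 had the 4th largest rise of wild type 2 over the mean of the other wild types, 0.65 on the log2 scale. Only Filip1l (0.99), Cmss1 (0.96), whose gene overlaps Filip1l, and Zc3h7a (0.91) had more, and the next, Jam2, had 0.28. Those 3 rows were second highest in mutant 2, as was Malat1, but varied also among the other libraries.

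Neat1 was the lowest member, with 740, 579 and 314 in mutants, against 354, 345 and 349 in wild type. Mutants 1 and 2 were above every wild-type library and mutant 3 was below them all. These values rest on 794, 571 and 425 reads in mutants and 258, 356 and 332 reads in wild type. The mean was 544 ± 215 in mutants and 349 ± 4.68 in wild type (SD, n = 3 each), a log2 difference of 0.55 (SE 0.27; limma, adjusted p = 0.485), and the 95% interval ran from 0.954-fold to 2.25-fold. The two-sided exact permutation test returned p = 0.4. The log2 difference was 0.29 without mutant 1, 0.46 without mutant 2 and 0.90 without mutant 3 (limma, unadjusted p = 0.000207 and adjusted p = 0.111 in the last). The unadjusted p was 0.0746 with all libraries, 0.0401 with the replicate block and 0.00957 with array quality weights in limma, 0.0398 with edgeR and 0.0112 with DESeq2, and the adjusted p was above 0.05 in each. Of 548 rows with fitting names and a mean of 100 or more, Neat1 ranked 8th by its log2 SD among mutants and 514th among wild types. The wild-type SD was below the spread that sampling of so few reads gives, so it does not measure how alike wild-type embryos are. The epithelial markers Trp63 and Ovol1, which mark the surface ectoderm, summed to 2022, 1208 and 992 in mutants, against 1096, 1026 and 1453 in wild type, and their part in the values of Neat1 was not tested. The mutants had the order of Neat1 in Trp63 alone (1891, 1045 and 915), while Ovol1 was highest in mutant 2 (131, 163 and 76.8). In wild type Trp63 had 1007, 907 and 1364, so wild type 3 was above mutants 2 and 3, while Neat1 was at 349 there.

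**Figure D4:**
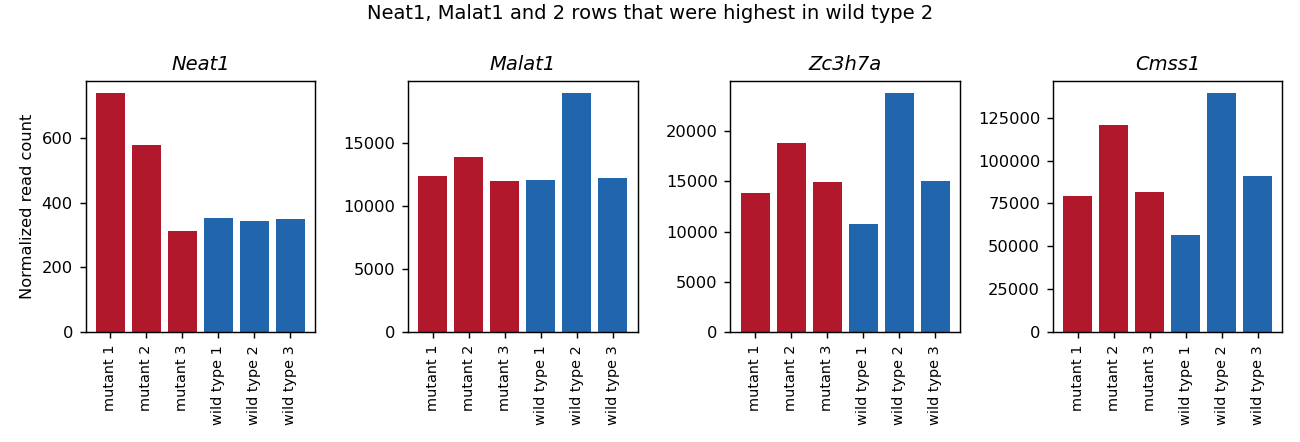
Normalized read counts by library (mutants left, wild type right) as bars from 0, for Neat1, for Malat1, and for Zc3h7a and Cmss1, which are no members and rose more in wild type 2; each panel has its own vertical axis. Neat1 is high in mutants 1 and 2, at 740 and 579, and Malat1 in wild type 2, at 18968, where the other 2 rows also have their highest bar.

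The level of Neat1 was also set against that of its neighbour within each library. The log2 ratio of Neat1 to Malat1 was -4.06, -4.59 and -5.25 in mutants, against -5.08, -5.78 and -5.12 in wild type. Mutant 3 lay within the wild-type range and the other mutants above it. The mean log2 ratio was 0.69 higher in mutants, with overlapping values (exact permutation test, two-sided, p = 0.3). This difference was 0.47 without wild type 2, the library of high Malat1, 0.41 without mutant 1 and 1.00 without mutant 3. Frmd8, a coding gene beside this pair, was at -0.11 on the log2 scale, mutant minus wild type (limma, adjusted p = 0.580). Every mutant value of Frmd8 was below every wild-type value, by a narrow margin, which was so in 10.4% of all tested rows.

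Set per kilobase of the longest annotated transcript, which allows genes to be compared, the mean level over the 6 libraries was highest for Sf3b2, at 19327 normalized reads per kb, followed by Sf1 at 13758. Tra2b at 7918 and Son at 7594 overlapped in their ranges. Rbm14 followed at 5135 and Sart1 at 3152. Malat1 at 1945 and Rbm4 at 1551 overlapped as well. The row named Hnrnpul2 had 1113 and Neat1 21.5. The 2 overlaps were the only ones between neighbours in this order. In mutants the level per kb of Sf3b2 was 19434 ± 1111 and in wild type 19220 ± 412 (SD, n = 3 each), and of Neat1 26.2 ± 10.4 in mutants and 16.8 ± 0.225 in wild type. A level per kb depends on the transcript chosen, and for Neat1 the longest is the long form of 20771 bases.

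Of 7 other splicing and speckle genes on chromosome 16 and the first 10 Mb of chromosome 19, 6 of them with fitting names, 5 were higher and 2 lower, and 0 passed limma, edgeR or DESeq2, with 0 at an unadjusted p below 0.05. Ppil2, a spliceosomal cyclophilin, had 10712 ± 257 in mutants and 10176 ± 176 in wild type (SD, n = 3 each), and Ess2 (row Dgcr14), a spliceosome-associated protein, 4999 ± 160 in mutants and 4762 ± 97.1 in wild type. In both, every mutant was above every wild type, which was so in 8.69% of all tested rows, but the log2 differences were only 0.07 (limma, adjusted p = 0.608 and 0.670). Scaf4, which binds the tail of RNA polymerase II, had 0.04, Rbm4b 0.09, and the neuronal splicing regulator Rbfox1, a row near 100, 0.24. Rbm11, a tissue-specific splicing regulator, had -0.47, with 123, 87.1 and 62.7 in mutants, against 118, 84.2 and 182 in wild type. Dyrk1a, a kinase that phosphorylates splicing factors, had -0.02 and lies beyond 94.2 Mb of chromosome 16. Without mutant 2 the values were -0.001 for Scaf4, 0.003 for Rbm4b and 0.06 for Dyrk1a.

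**Figure D5:**
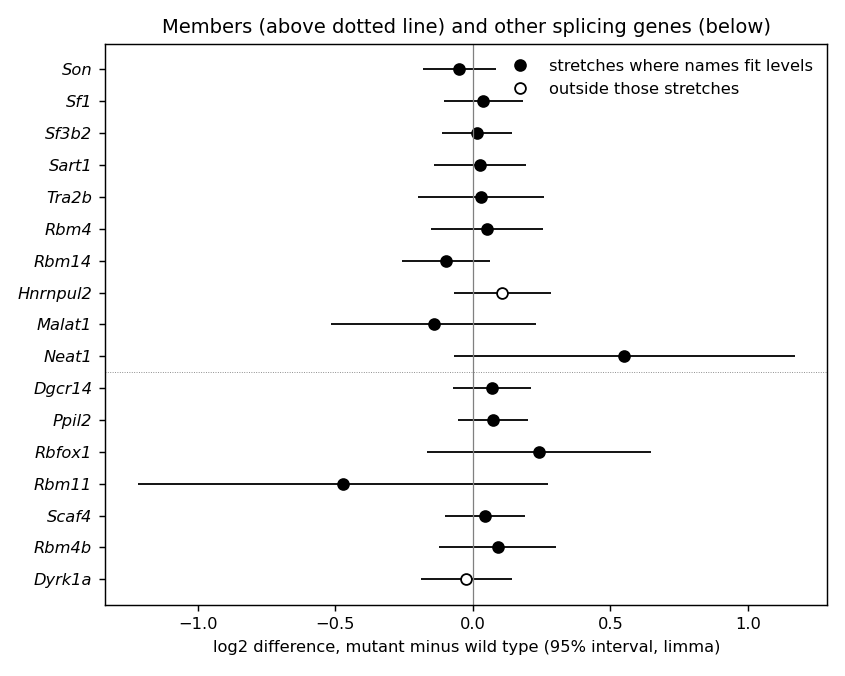
Log2 difference of mutant minus wild type with its 95% interval from limma (n = 3 each), for the 10 members above the dotted line and the 7 other splicing and speckle genes below it; open circles mark rows outside the stretches where names fitted levels. Every interval includes 0, and among the members the widest is that of Neat1, from -0.07 to 1.17.

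Among 22 other genes of nuclear RNA synthesis, processing and export in the same regions, 21 were tested, 13 higher and 8 lower. Of these, 0 passed limma, edgeR or DESeq2, which gave no adjusted p for some low rows. Names fitted for 16 of them, 10 higher and 6 lower. An unadjusted p below 0.05 was found in 2 of the 21, against 10.8% of all rows, and the genotypes did not overlap in 3, against 19.1%, so neither share stood above that of all rows. Paxbp1 (row Gcfc1), a nuclear protein that binds the factors PAX3 and PAX7, had 14585, 16108 and 14601 in mutants, against 13067, 13635 and 11449 in wild type, without overlap, a log2 difference of 0.25 (limma, adjusted p = 0.396). Urb1, a factor of large ribosomal subunit assembly, had 7414, 7005 and 7227 in mutants, against 7884, 7805 and 8093 in wild type, also without overlap, with -0.14 (adjusted p = 0.455). The row named Ints5, for an Integrator subunit, lies outside the stretches with fitting names and had -0.15, also without overlap (adjusted p = 0.470), and Rnaseh2c, a subunit of ribonuclease H2, had 0.20 (adjusted p = 0.587) and 0.04 without mutant 2. The rows of highest mean were Cmss1 with a log2 difference of 0.04, the mRNA-binding protein gene Igf2bp2 with -0.04, the nucleolar Rsl1d1 with 0.07 and the cap-binding subunit gene Ncbp2 with 0.01.

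Of 68 further splicing genes elsewhere in the genome, 50 have a row and 41 were tested, 23 higher and 18 lower. Of these, 0 passed limma, edgeR or DESeq2. DESeq2 gave no adjusted p for many low rows, those named Mbnl2 and Srrm1 included, so its result covers only part of the 41. Among the 50 rows 30 had a mean below 100 (60%) and 14 had 1000 or more, so most of these rows need not hold the level of the named gene. An unadjusted p below 0.05 in limma was found in 2 of the 41, against 10.8% of all rows, so the share did not stand above that of all rows. The 2 were the low rows named Mbnl2 and Srrm1, with log2 differences of -1.17 and -0.83. Their means were 10.7 ± 2.15 and 9.92 ± 3.71 in mutants, against 25.5 ± 5.80 and 17.8 ± 1.79 in wild type (SD, n = 3 each). The rows named Snrpf and Prpf8 had -0.26 and -0.20 (limma, adjusted p = 0.462 for both).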

How the data were processed

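Each of the 6 libraries was prepared, per the labels' protocols, with the RNeasy mini kit and the Illumina TruSeq RNA kit V2. CASAVA 1.7, bedtools and mm9 are named in the submitters' processing notes; aligner, counting rule and strand use: not given in the sources used here. The deposited signal is a normalized read count per row, made by the authors; 100% of values were whole multiples of a step per library (within 0.001), which gave the recovered reads. A deposited log2 ratio for Smarcc1, in the authors' own sheet, is not printed. Further value columns, 12 in all, were not used.

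Rows with a mean of at least 10 (13329 of 15734) were tested in R 4.3.3 by limma 3.58.1 (trend on) as log2(value + 1), two-sided, Benjamini-Hochberg adjusted over all rows at 0.05. Log2 differences carry that pseudocount and are too small for low rows. No covariate was used. Single values had an exact permutation test. Alternatives used edgeR 4.0.16 and DESeq2 1.42.0 on the reads, and the settings named under the closing section. The limma step was tested on simulated data.

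Names were matched to GRCm38 (GENCODE, and RefSeq names): 14324 by symbol, 1302 by an older symbol, 108 not at all. Coordinates, lengths and sequences are from GRCm38, not mm9, and none were converted. Members and lists were chosen with earlier results of these data known. Named are all members, all 7 other splicing and speckle genes, of the 22 the 4 of smallest p and 4 of highest mean, of the 68 the 4 of smallest p, and Smarcc1; Donson, Frmd8, Filip1l, Zc3h7a and Jam2 were added after their values were seen. Library pairs of a genotype were not duplicates (chi-square over degrees of freedom between 11.3 and 90.5). Labels speak of separate embryos.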

Additional observations from a re-analysis of the deposited data

How the results depend on the processing

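The 17 alternatives passed 0 members, 0 of the other splicing and nuclear RNA genes on chromosome 16 and the first 10 Mb of chromosome 19 and 0 of the splicing rows elsewhere. Of 170 member values 160 kept their sign and 10 did not, with adjusted p from 0.111 to 0.993. The changed filters, the fit without trend and the replicate block cannot change a member's log2 difference, and the pseudocounts hardly moved it. Their share of the 160 was fixed in advance and says nothing about robustness. Over all rows, 3 were called as planned, with 5 for quantile normalization, 5 for equal medians, 0 for limma without trend, 60 for array quality weights and 155 for DESeq2, and between 0 and 14 when single libraries were left out. The count was 3 with no filter, with a minimum mean of 50 and with either pseudocount (0.1, 5), and 2 with edgeR. With array quality weights the log2 difference was -0.0014 for Sf1, -0.036 for Sart1 and -0.033 for Rbm4. Without single libraries it ran from -0.026 to 0.073 for Sf1, -0.025 to 0.057 for Sf3b2, -0.051 to 0.066 for Sart1, -0.082 to 0.130 for Tra2b and -0.043 to 0.107 for Rbm4, each lowest without mutant 2, and from -0.255 to 0.073 for Malat1, highest without wild type 2. The ratio of Neat1 to Malat1 differed by 0.408 to 1.00. The cause was not tested.

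No pairing by replicate number was seen: deviations of same-numbered libraries correlated at -0.045, -0.0003 and 0.059. Libraries of different numbers correlated at -0.065 to 0.055. With only 3 libraries a genotype, each centred on its genotype mean, these correlations cannot exclude a pairing. With the replicate block 3 rows were called and 0 members, and the block changed no member's call.

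Neat1 had the fewest reads of the members, 258 to 794 a library. Its coefficient of variation was 39.5% in mutants and 1.34% in wild type. Sampling alone gives counts of this size a larger spread than 1.34%, so the wild-type value does not measure the spread between embryos.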
